A study of Mus musculus with 12 samples.

Results

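Cxcl14 encodes a small secreted protein of the CXC chemokine family, and its messenger RNA was followed across 12 RNA-seq libraries made from the caudal part of mouse embryos. The gene was taken by its symbol, as 1 of the 53342 genes of the deposited table, and it was 1 of the 17848 that passed the filter on low values. It was chosen by its measured levels in these same libraries, where earlier results showed it low in mutants, so its differences between genotypes are given here as a description, without a test. The embryos were collected at E10.5, where E counts embryonic days. There were 3 libraries from wild-type embryos, 3 from beta-catenin cKO embryos, in which Ctnnb1 was knocked out conditionally, 3 from Emg1 cKO embryos, in which Emg1 was, and 3 from Vangl2 Lp/Lp embryos, homozygous for the loop-tail mutation of Vangl2. All 3 mutants have impaired closure of the neural tube, and the study's title asks about the surface ectoderm, the outer epithelium of the embryo. Each library held RNA from a pool of 4 to 7 embryos. The Cre driver of the conditional knockouts, the deleted exons, the strain, and the floxed alleles that wild-type embryos may carry stay not given in the sources used here. A bulk library of this kind cannot tell fewer cells of a type from less RNA per cell.

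Chemokines are small secreted proteins that guide migrating cells through receptors on the cell surface, and the family is named after the spacing of its first conserved cysteines. Cxcl14 is known as a chemokine that epithelia such as the skin make without inflammation. Which receptor carries its signal is not settled. Cxcl12, which acts on Cxcr4 and is scavenged by Ackr3, is the family's best known member in embryos.

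Cxcl14 (ENSMUSG00000021508) lies on the minus strand of mouse chromosome 13, from 56288643 to 56296551 on mm10. GENCODE vM21 gives it 2 protein-coding transcripts. Cxcl14-201 has 4 exons and 1827 spliced bases, the longest being exon 4 with 1165 bases at 56288643 to 56289807, and no other annotated gene overlaps the locus. Of its 1797 windows of 31 bases, 0 occur in an annotated transcript of another gene, on either strand. The coding sequence is shown because it carries the feature that names the family. It has 300 bases in 100 codons, the stop codon included, and is read here 5′ to 3′ from the GENCODE vM21 transcript, with the cysteine codons in capitals:
Cxcl14-201: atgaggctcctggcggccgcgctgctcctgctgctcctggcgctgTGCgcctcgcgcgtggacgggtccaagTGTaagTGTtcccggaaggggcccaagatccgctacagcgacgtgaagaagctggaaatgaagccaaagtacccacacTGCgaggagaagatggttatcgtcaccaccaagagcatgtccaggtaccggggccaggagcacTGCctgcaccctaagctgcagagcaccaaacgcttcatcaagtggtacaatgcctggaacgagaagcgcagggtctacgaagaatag
The 5 cysteine codons are codons 16, 25, 27, 51 and 72. Codons 25 and 27, with 1 codon between them, are the C-X-C pair. The 250 bases before the RefSeq start of the gene, at chr13:56296552-56296801 on the minus strand of GRCm38.p6, are shown since the genes nearest to Cxcl14 in level are compared with it below in the same window, with each CG in capitals:
Cxcl14 upstream: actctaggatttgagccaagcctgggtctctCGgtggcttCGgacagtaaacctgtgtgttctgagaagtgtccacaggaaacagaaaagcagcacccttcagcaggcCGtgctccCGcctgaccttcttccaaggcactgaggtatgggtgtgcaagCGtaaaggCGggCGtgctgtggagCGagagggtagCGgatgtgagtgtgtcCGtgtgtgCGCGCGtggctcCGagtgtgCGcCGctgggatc
This window held 16 CG dinucleotides and 59.6% G and C, against medians of 6 and 52.4% over the windows of 32851 RefSeq promoters.

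The 12 libraries held 32863562 to 46464596 reads, and replicates of a genotype correlated at 0.993 to 0.996 across genes on the log2 scale. Wild-type libraries had 16143 to 16364 genes above 1 TPM (a transcript level scaled for transcript length and library total), and mutant libraries had 16794 to 17115. Of the targeted genes, Emg1 fell from 73.9 ± 5.72 TPM (SD, n = 3) in wild type to 46 ± 2.38 in Emg1 cKO (log2 fold change −0.81, adjusted p = 9.5e-06). Ctnnb1 stood at 811 ± 55.0 TPM in wild type and 823 ± 14 in beta-catenin cKO (−0.09, adjusted p = 0.20), a level over the whole gene that does not check a deletion of some exons. Vangl2 stood at 65.0 ± 5.26 and 77.2 ± 2.02 TPM in wild type and Vangl2 Lp/Lp (0.17, adjusted p = 0.074), and loop-tail is a missense allele. Vangl2 Lp/Lp replicate 1 stood apart from replicates 2 and 3 in neuronal genes, with Dcx at 37.3 TPM against 20.24 and 19.99. Leaving it out took the genes called between Vangl2 Lp/Lp and wild type from 1570 to 719. Every adjusted p comes from edgeR's two-sided quasi-likelihood test over all 17848 genes, and a gene is called where it is under 0.05. Log2 fold changes come from the same fit, which scales the libraries in its own way, and TPM does not use that scaling. The 2 can therefore differ in size, and near 0 in sign, as for Ctnnb1.

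Cxcl14 was a gene of middling level in wild type, and its level followed the genotype. The wild-type libraries held 33.2, 30.3 and 34.1 TPM in the order of replicates, and the Vangl2 Lp/Lp libraries 30.4, 27.7 and 24.7 TPM. The Emg1 cKO libraries held 17.2, 15.3 and 15.3 TPM, and the beta-catenin cKO libraries 5.54, 7.76 and 6.62 TPM. All 6 libraries of the conditional knockouts lay below all 6 others, and all 3 beta-catenin cKO libraries lay below all 3 Emg1 cKO libraries. The means were 32.5 ± 1.99 in wild type, 27.6 ± 2.85 in Vangl2 Lp/Lp, 15.9 ± 1.11 in Emg1 cKO and 6.64 ± 1.11 TPM in beta-catenin cKO (SD, n = 3 each). Vangl2 Lp/Lp thus held 84.9% of the wild-type mean, Emg1 cKO 49.0% and beta-catenin cKO 20.4%. In that order only the neighbours wild type and Vangl2 Lp/Lp overlapped in TPM. The highest Vangl2 Lp/Lp library, at 30.4 TPM, just passed the lowest wild-type library, at 30.3 TPM. Scaled as in the fit, these groups did not overlap, as given below.

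**Figure D1:**
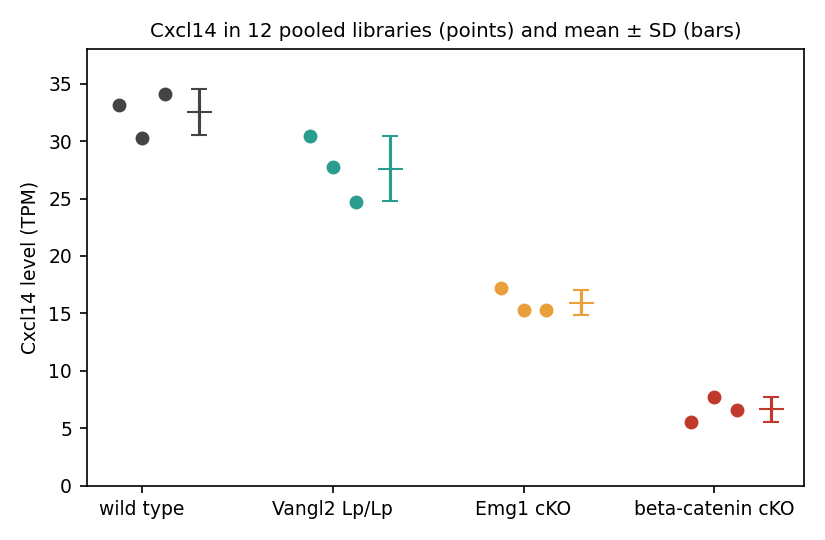
Cxcl14 level in TPM (vertical axis, from 0) in each of 12 pooled libraries, as points, with the mean and SD of 3 libraries beside them as a bar. Beta-catenin cKO libraries sit between 5.54 and 7.76 TPM and Emg1 cKO libraries between 15.3 and 17.2, below all wild-type and Vangl2 Lp/Lp libraries.

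Cxcl14 drew 99 to 940 reads per library. It had 619, 632 and 940 reads in the wild-type libraries and 585, 578 and 459 in Vangl2 Lp/Lp. There were 353, 304 and 316 reads in Emg1 cKO and 99, 138 and 130 in beta-catenin cKO. Counting error alone was 3.26% of the value in the best covered library and 10.1% in the least covered. The coefficient of variation between replicates was 6.11% in wild type, 10.3% in Vangl2 Lp/Lp, 6.95% in Emg1 cKO and 16.8% in beta-catenin cKO, where the reads were fewest. The model's biological coefficient of variation for Cxcl14 was 10.4%, against a median of 10.2% over 1824 genes of like level. The model draws each gene's value towards those of genes of like level, so this nearness is in part built in. Cxcl14 stood above 66.8% to 71.0% of the tested genes in wild-type libraries, and above 31.3% to 37.5% in beta-catenin cKO libraries. In Emg1 cKO it stood above 49.4% to 51.8% of them, and in Vangl2 Lp/Lp above 60.9% to 65.9%.

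On the scale of the fit, beta-catenin cKO libraries held 5.30-fold less Cxcl14 than wild-type libraries (log2 fold change −2.41 ± 0.14 SE, n = 3 and 3). The nearest libraries of these groups were 22.5 TPM apart, and Cxcl14 ranked 27 among the 17848 genes ordered from the most lowered, in a comparison in which 14.5% of genes were called. It was 2.22-fold lower in Emg1 cKO (−1.15 ± 0.12 SE), with a gap of 13.1 TPM and rank 193, where 21.7% of genes were called. In Vangl2 Lp/Lp the log2 difference was −0.32 ± 0.12 SE, or 1.25-fold, with overlapping groups and rank 1340, where 8.8% of genes were called. It was −0.40 without Vangl2 Lp/Lp replicate 1, −0.25 without replicate 3 of either group. Between mutants, Cxcl14 was 2.39-fold lower in beta-catenin cKO than in Emg1 cKO (−1.25 ± 0.14 SE), with 7.52 TPM between the groups, where 3.26% of genes were called. It was 4.24-fold lower in beta-catenin cKO than in Vangl2 Lp/Lp (−2.08 ± 0.14 SE), where 3.87% of genes were called, and 1.78-fold lower in Emg1 cKO than in Vangl2 Lp/Lp (−0.83 ± 0.13 SE), where 2.83% were. The comparisons with wild type share the same 3 wild-type libraries.

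Set beside 46 listed genes of the surface ectoderm, Cxcl14 was more lowered than any in beta-catenin cKO and one of many lowered genes in Emg1 cKO. Since Cxcl14 was chosen for its low level in these same libraries, its place in this order is a description only. The list held 50 epithelial and epidermal genes without Cxcl14, of which 46 were tested. In beta-catenin cKO 16 of the 46 fell (34.8%) and 1 rose, while 6.99% of all tested genes were called lower and 7.48% higher. The list's median log2 fold change was −0.31, against 0.00 for all genes, and 0 of the 46 were more lowered than Cxcl14. Krt5, a keratin of basal epidermal cells, came closest. It held 29.0, 25.2 and 26.2 TPM in wild type and 7.77, 7.95 and 5.09 TPM in beta-catenin cKO (−2.07 ± 0.17 SE, adjusted p = 3.1e-06). Tfap2c, an AP-2 transcription factor of early ectoderm, held 13.3, 12.96 and 12.98 TPM in wild type and 4.16, 4.67 and 3.97 TPM in beta-catenin cKO (−1.73 ± 0.11 SE, adjusted p = 3.5e-07). The groups of both genes lay well apart. Wnt6, a WNT ligand of the surface ectoderm, fell by 1.42 on the log2 scale (adjusted p = 2.3e-06), and Trp63, the master transcription factor of stratified epithelia, fell by 1.18 (adjusted p = 9.8e-06). Grhl3, a grainyhead-like factor of the surface ectoderm that the study's title names, fell by 0.96 (adjusted p = 0.0079). The gene that rose was Wnt7b, another WNT ligand (0.77, adjusted p = 0.00058), which neural tissue also makes. Cldn6 and Epcam, genes of epithelial junctions and adhesion chosen here after their values were seen, held 72.8 ± 6.99 and 48.6 ± 2.34 TPM, against 70.7 ± 3.94 and 49.9 ± 4.49 in wild type (adjusted p = 0.62 and 0.25).

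In Emg1 cKO more of the list was lowered, and Cxcl14 lay among them. There 31 of the 46 genes fell (67.4%) and 2 rose, beside 10.4% of all genes called lower and 11.3% called higher, and the list's median was −0.56. Of the 46, 5 were more lowered than Cxcl14: Krt15, Dlx3, Grhl3, Wnt6 and Trp63. Grhl3 held 15.1, 16.2 and 13.7 TPM in wild type and 3.18, 6.23 and 7.61 TPM in Emg1 cKO (−1.52 ± 0.22 SE, adjusted p = 0.00023). Trp63 fell by 1.36 on the log2 scale (adjusted p = 1.5e-06), Wnt6 by 1.39 (adjusted p = 1.5e-06), Tfap2c by 1.12 (adjusted p = 1.1e-05) and Krt5 by 1.0 (adjusted p = 0.00045). Cldn6 fell from 70.7 ± 3.94 to 46.8 ± 4.08 TPM (adjusted p = 4.5e-05), and Epcam from 49.9 ± 4.49 to 37.5 ± 3.21 TPM (adjusted p = 0.00054). The genes that rose were Wnt7b (0.99, adjusted p = 4.5e-05) and Krt14 (0.89, adjusted p = 0.049), whose call was lost in 8 of 17 alternatives, which change 1 setting of the fit or leave out 1 library (highest adjusted p 0.19). The count higher was 1 in place of 2 with any 1 of 7 libraries left out: wild type replicates 1 and 2, beta-catenin cKO replicate 1, Vangl2 Lp/Lp replicates 2 and 3, and Emg1 cKO replicates 2 and 3.

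In Vangl2 Lp/Lp, where Cxcl14 overlapped wild type in TPM but not when scaled as in the fit, 5 of the 46 genes fell (10.9%) and 1 rose. Of all tested genes 3.34% were called lower and 5.45% higher. The list's median was −0.23, and 15 of the 46 were more lowered than Cxcl14. The 5 were Krt8, Wnt6, Krt18, Trp63 and Perp, and the gene that rose was Wnt7b (1.013, adjusted p = 0.00012). Wnt6 held 30.1, 27.3 and 26.4 TPM in wild type and 18.1, 22.7 and 19.8 TPM in Vangl2 Lp/Lp, with no overlap (−0.55 ± 0.11 SE, adjusted p = 0.0055). Trp63 fell by 0.47 (adjusted p = 0.014), and this call was lost without wild type replicate 1 or Vangl2 Lp/Lp replicate 1 (adjusted p at most 0.057 over the libraries left out). With limma on log2(TPM + 1) the Trp63 call was lost too (adjusted p = 0.11). Krt5 held 27.0, 29.0 and 31.3 TPM and Tfap2c 11.1, 12.9 and 13.5 TPM, and neither was called (adjusted p = 0.92 and 0.41). Without Vangl2 Lp/Lp replicate 1 the count lower was 1, and without Emg1 cKO replicate 1, which enters through the shared estimate of spread, it was 9.

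Library by library, the distance between Cxcl14 and the list was widest in beta-catenin cKO. Against the wild-type mean, on the log2 scale, Cxcl14 stood at −2.47, −2.04 and −2.27 in the beta-catenin cKO libraries, where the median of the 46 genes stood at −0.30, −0.34 and −0.33. In the Emg1 cKO libraries Cxcl14 stood at −1.006, −1.15 and −1.16 and the median at −0.74, −0.49 and −0.36. In the Vangl2 Lp/Lp libraries Cxcl14 stood at −0.17, −0.29 and −0.48 and the median at −0.26, −0.17 and −0.23. Counted per library, 0, 0 and 1 of the 46 genes lay below Cxcl14 in beta-catenin cKO, 7, 5 and 5 in Emg1 cKO, while Vangl2 Lp/Lp had 26, 12 and 4.

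**Figure D2:**
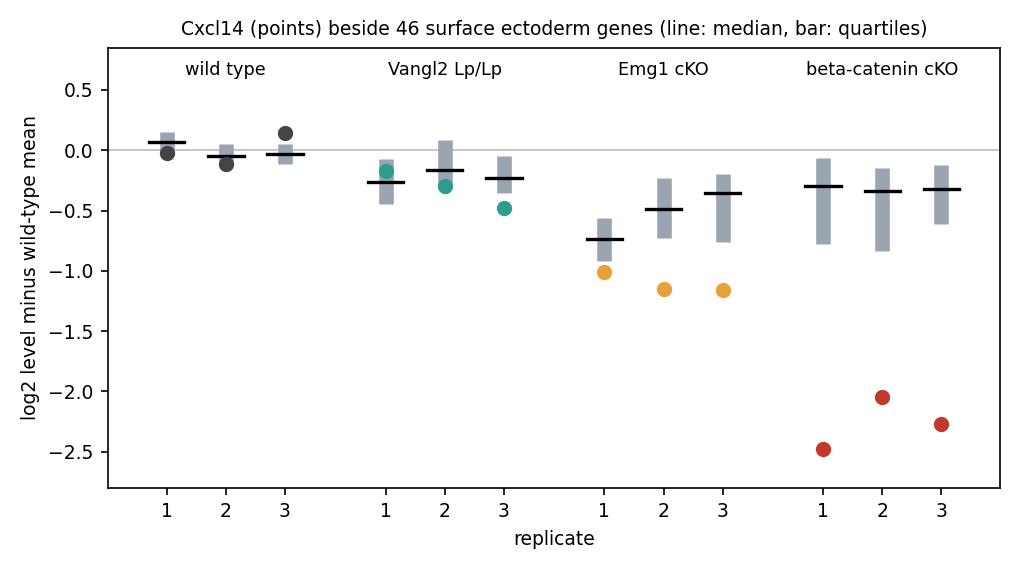
Log2 level minus the wild-type mean (vertical axis) of Cxcl14, as points, and of 46 surface ectoderm genes, as a line at their median and a bar over their quartiles, in each library (horizontal axis, by genotype and replicate). In the 3 beta-catenin cKO libraries Cxcl14 sits at −2.47 to −2.04, with the list's median at −0.34 to −0.30.

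The level of Cxcl14 was also set over that of single surface ectoderm genes in the same library. The ratio of Cxcl14 to Krt5, both in TPM, was 1.22 in wild type, 0.957 in Vangl2 Lp/Lp, 1.13 in Emg1 cKO and 0.996 in beta-catenin cKO on average. The Krt5 ratio of both conditional knockouts overlapped that of wild type, which ran from 1.14 to 1.30, while all Vangl2 Lp/Lp libraries, at 0.789 to 1.12, lay just below it. The ratio to Trp63 was 3.58, 3.94 and 4.10 in wild type, Vangl2 Lp/Lp and Emg1 cKO, and 1.51 in beta-catenin cKO. Its highest beta-catenin cKO library, at 1.64, lay below the lowest of the other 9, at 3.13. The ratio to Wnt6 was 1.17, 1.38 and 1.38 in the same 3 genotypes and 0.587 in beta-catenin cKO, again without overlap. The ratio to Tfap2c was 2.49, 2.24 and 2.45, and 1.55 in beta-catenin cKO. The ratio to Epcam was 0.654 in wild type, 0.629 in Vangl2 Lp/Lp, 0.429 in Emg1 cKO and 0.137 in beta-catenin cKO. Cxcl14 was therefore lower in proportion to Trp63, Wnt6, Tfap2c and Epcam in beta-catenin cKO, and in proportion to Krt5 its range there overlapped those of the other 3 genotypes.

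Between the conditional knockouts, in which Cxcl14 differed 2.39-fold, the surface ectoderm list moved both ways. The list mixes epithelial and epidermal genes, and the tissue behind each change was not tested. Of the 46 genes, 4 fell and 5 rose from Emg1 cKO to beta-catenin cKO, beside 1.89% of all tested genes called lower and 1.37% called higher, and the list's median was 0.19. Apart from Krt5 and Tfap2c, the genes of this comparison are named after their values were seen. The lower ones were Krt14, a keratin of basal epidermal cells (−2.14 ± 0.34 SE, adjusted p = 0.0023), Krt5 (−1.06 ± 0.17 SE, adjusted p = 0.0024), Tfap2c (−0.61 ± 0.12 SE, adjusted p = 0.0092) and Tfap2a, another AP-2 factor (−0.55 ± 0.12 SE, adjusted p = 0.016). Krt14 held 1.30, 1.005 and 3.001 TPM in beta-catenin cKO and 7.57, 9.87 and 6.35 TPM in Emg1 cKO, with 2.92, 3.81 and 4.91 TPM in wild type, and keratins are close copies of each other, so some of its reads may be shared. The higher ones were Cldn6 (0.64, adjusted p = 0.00054), Esrp1, an epithelial splicing factor (0.61, adjusted p = 0.010), Prss8, a membrane-bound protease (0.68, adjusted p = 0.019), Epcam (0.38, adjusted p = 0.024) and Krt18, a keratin of simple epithelia (0.48, adjusted p = 0.031). Only Krt14 and Krt17 of the 46 had a lower log2 fold change than Cxcl14, and Krt17 (−1.81, 18 and 71 reads in all, adjusted p = 0.062) was not called. Krt5, Krt14 and Cldn6 were called in all 17 alternatives. Tfap2c was lost without beta-catenin cKO replicate 3 (adjusted p = 0.059). Tfap2a was lost without beta-catenin cKO replicate 1 or 2 or Emg1 cKO replicate 2 or 3 (at most 0.071). The count higher fell to 2, 2 and 1 without beta-catenin cKO replicates 1, 2 and 3, and to 3 without Emg1 cKO replicate 1 or 2.

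**Figure D3:**
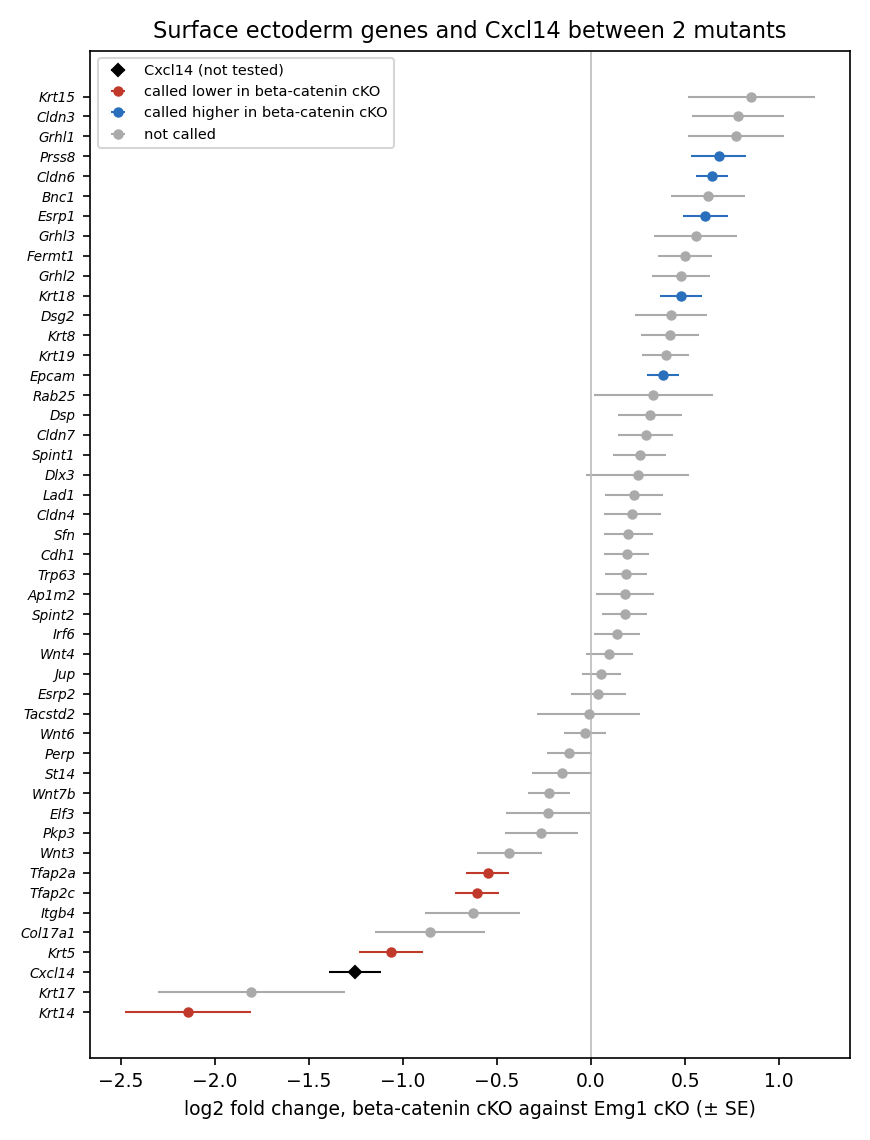
Log2 fold change of beta-catenin cKO against Emg1 cKO (horizontal axis, with SE bars from the fit) for Cxcl14 and the 46 tested surface ectoderm genes, ordered by value. Cxcl14, at −1.25, lies at the low end with Krt14 and Krt5, and Cldn6 and Epcam, at 0.64 and 0.38, lie on the other side of 0.

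The genes whose levels were most like those of Cxcl14 over the 12 libraries were led by Krt5 and Tfap2c of the surface ectoderm. Likeness was measured as the root mean square difference between the centred log2 levels of the gene and of Cxcl14 over the 12 libraries, among 13941 tested genes with a proper symbol. This is a description of libraries that share genotype and tissue makeup. Krt5 was nearest, at 0.262, then Tfap2c at 0.290 and Gjb2 at 0.324, where the median gene stood at 0.890. Pearson's r with Cxcl14 over the 12 libraries was 0.955, 0.965 and 0.965. Gjb2, which encodes a connexin of epidermal gap junctions, held 11.5, 10.6 and 12.5 TPM in wild type, 8.31, 11.3 and 10.2 in Vangl2 Lp/Lp, 5.71, 7.32 and 7.35 in Emg1 cKO and 3.20, 4.44 and 3.46 in beta-catenin cKO. Its order of genotypes was that of Cxcl14, and its Vangl2 Lp/Lp libraries likewise overlapped wild type in TPM. Next came Bhlha9, a limb bud ectoderm factor (0.356), Car12, a carbonic anhydrase (0.401), Sox10, a neural crest factor (0.405), Wnt10b, a WNT ligand of the epidermis (0.410), Eno1b (0.422), Gjb6, the connexin gene beside Gjb2 on chromosome 14 (0.423), and Col17a1, a hemidesmosome collagen (0.425). Gene 11 in this order was Edar, at 0.446. Eno1b is a near copy of the enolase gene Eno1, so its reads may be shared, and it was the most abundant of the 10, at 908 ± 43.2 TPM in wild type and 390 ± 46.4 in beta-catenin cKO.

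All 10 of these genes had their lowest mean in beta-catenin cKO, but in Emg1 cKO they varied. Sox10 held 22.92 ± 2.45 TPM in wild type, 22.02 ± 2.86 in Emg1 cKO and 28.2 ± 2.04 in Vangl2 Lp/Lp, against 6.83 ± 1.83 in beta-catenin cKO. Car12 held 5.13 ± 0.575 TPM in wild type, 3.97 ± 0.162 in Emg1 cKO and 1.88 ± 0.0657 in beta-catenin cKO. Bhlha9 was nearer to Cxcl14 in both conditional knockouts, at 9.62 ± 0.952 TPM in wild type, 4.92 ± 0.663 in Emg1 cKO and 2.13 ± 0.989 in beta-catenin cKO. Of the 10 genes, 3 were in the surface ectoderm list (Krt5, Tfap2c and Col17a1), which makes up 0.33% of the genes compared. Other genes of that list were farther off: Wnt6 had rank 19, Tfap2a rank 25, Trp63 rank 51, Grhl3 rank 347 and Grhl2 rank 743. With any single library left out, 7 to 10 of the 10 genes were named again, and Krt5, Tfap2c, Gjb2, Car12 and Wnt10b were named each time. Ranked by Pearson's r instead, 5 of the 10 were named again.

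**Figure D4:**
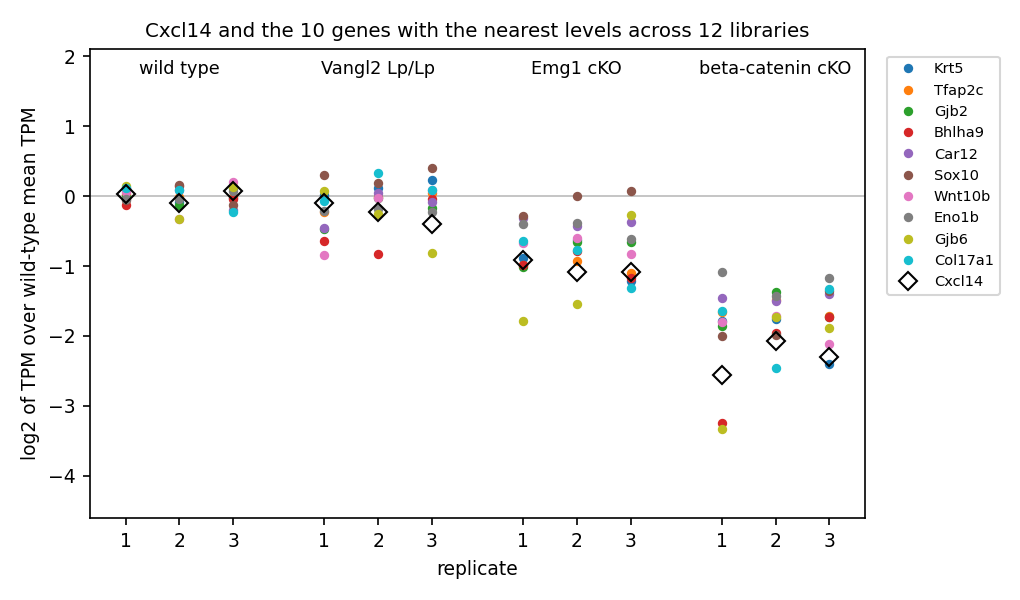
Log2 of TPM over the wild-type mean TPM (vertical axis) of Cxcl14, as open diamonds, and of the 10 genes with the nearest levels, as coloured points, in 12 libraries (horizontal axis, by genotype and replicate). Sox10 stays near 0 in Emg1 cKO, where Krt5, Tfap2c and Bhlha9 lie near Cxcl14, and all lie low in beta-catenin cKO.

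The same upstream window was read for 7 of these 10 genes, those with a row in the RefSeq promoter table. The letters GCCNNNGGC, a form of the AP-2 site, occurred in the windows of Gjb2, Bhlha9 and Wnt10b and in 13.7% of all 32851 promoters. CTTTGA, a core form of the TCF/LEF site through which beta-catenin acts, occurred in that of Gjb2 and in 13.8% of all. TATAAA occurred in that of Col17a1 and in 12.4% of all, and AACCGGTT, a grainyhead site, in 0 of the 7 and in 0.116% of all. Both strands were searched, and GCCNNNGGC reads the same letters on both. The window of Cxcl14 held 0 matches to any of the 4, which says only that these letters are not in those 250 bases.

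Among chemokines, Cxcl14 was the ligand with the second level in wild type and stood lower in the order in both conditional knockouts. By mean TPM it came after Cxcl12 (90.8) and before Pf4 (22.03), Ppbp (6.27), Ccl25 (5.48), Ccl27a (4.38) and Cx3cl1 (3.06) in wild type. It had rank 2 of 38 ligands in wild type, rank 3 in Vangl2 Lp/Lp, rank 3 in Emg1 cKO and rank 5 in beta-catenin cKO. The place in Vangl2 Lp/Lp rests on replicate 3, since Cxcl14 stood above Pf4 in replicates 1 and 2 (30.4 against 29.4 TPM and 27.7 against 27.0) and below it in replicate 3 (24.7 against 27.6). In beta-catenin cKO its neighbours Ccl25 (6.92) and Ccl27a (6.11) lay within its SD of 1.11 TPM. Cxcl12, the ligand of Cxcr4, moved the other way in the conditional knockouts. It held 98.1, 90.5 and 83.8 TPM in wild type, 156, 144 and 155 in beta-catenin cKO, 142, 138 and 140 in Emg1 cKO, while Vangl2 Lp/Lp held 108, 103 and 114. In TPM every library of every mutant lay above every wild-type library. Cxcl12 rose by 0.63 ± 0.05 SE in beta-catenin cKO (adjusted p = 3.1e-06) and by 0.51 ± 0.05 SE in Emg1 cKO (adjusted p = 2e-05). The loop-tail libraries gave 0.17 ± 0.05 SE (adjusted p = 0.051), which misses the threshold.

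Of the 37 other ligands 8 were tested, and of 25 receptors 5, so 13 genes of the pathway. Over all tested genes 14.5% were called in beta-catenin cKO, 21.7% in Emg1 cKO and 8.8% in Vangl2 Lp/Lp, and nothing about the list is read from counts this small. In beta-catenin cKO 1 of the 13 rose, Cxcl12, and 0 fell, by edgeR, as DESeq2 and limma also gave 0 lower; at an unadjusted p under 0.05 the count was 4 higher and 0 lower. It became 4 without wild type replicate 3 and 3 without beta-catenin cKO replicate 1. In Emg1 cKO 4 rose and 0 fell, by edgeR, DESeq2 and limma alike and at an unadjusted p under 0.05. Besides Cxcl12, they were Ppbp, a platelet chemokine (1.08, adjusted p = 0.0073), Cxcl16, a membrane-bound ligand (1.88, 41 reads in all in wild type and 150 in Emg1 cKO, adjusted p = 0.0090) and Ackr1, a decoy receptor of red cells and venules (0.77, adjusted p = 0.038). Cxcl16 was lost without Emg1 cKO replicate 2, which left 2 called, and Ackr1 without any single Emg1 cKO library, wild type replicate 1 or 2 or beta-catenin cKO replicate 3 (highest adjusted p 0.14). In Vangl2 Lp/Lp 0 of the 13 were called by edgeR, 1 by DESeq2 and 1 by limma, and 3 at an unadjusted p under 0.05; without wild type replicates 1 and 3 the count was 1 and 2. Cxcr4 held 41.9 ± 4.90 TPM in wild type, 49.1 ± 2.48 in beta-catenin cKO, 49.8 ± 2.43 in Emg1 cKO and 48.7 ± 4.94 in Vangl2 Lp/Lp. Ackr3 held 36.4 ± 3.46, 43.5 ± 1.89, 40.9 ± 3.45 and 37.2 ± 1.68 TPM in the same order. Neither receptor was called in any mutant (adjusted p from 0.20 to 0.73).

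**Figure D5:**
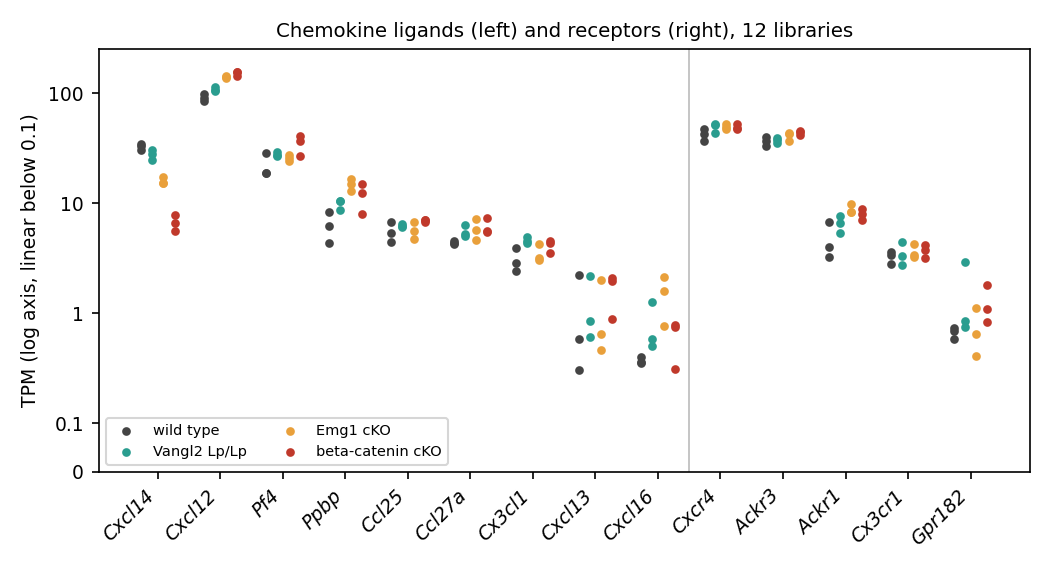
TPM (vertical axis, logarithmic above 0.1) of Cxcl14, the 8 other tested chemokine ligands and the 5 tested receptors in 12 libraries, as points coloured by genotype. Cxcl14 spreads from 5.54 to 34.1 TPM with beta-catenin cKO lowest, and Cxcl12 spreads from 83.8 to 156 TPM with wild type lowest.

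Myeloid cells carry many chemokine receptors, and their markers were read beside Cxcl14. Of 22 markers 18 were tested, and their summed level was 56.5 to 68.3 TPM in wild-type, 75.3 to 86.0 in beta-catenin cKO, 79.5 to 81.4 in Emg1 cKO and 69.5 to 92.6 in Vangl2 Lp/Lp libraries. Every mutant library held more than every wild-type library. The single calls were near the background, 11.3% of all tested genes called higher in Emg1 cKO and 6.99% called lower in beta-catenin cKO, and are no result about the markers. In Emg1 cKO 2 rose, the mannose receptor Mrc1 (0.65, adjusted p = 0.015, lost without wild type or Emg1 cKO replicate 1) and the complement gene C1qa (0.64, adjusted p = 0.035, lost in 7 of the 17 alternatives, among them any single Emg1 cKO library and wild type replicates 2 and 3). In beta-catenin cKO 1 fell, Cd14 (22 reads in all against 87 in wild type, adjusted p = 0.017), a call lost without beta-catenin cKO replicate 1 (adjusted p = 0.070). Loop-tail libraries had 0 calls by edgeR and by DESeq2 and 1 by limma, with 3 at an unadjusted p under 0.05. Their part in the level of Cxcl14 was not tested.

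Most tested genes around Cxcl14 on chromosome 13 were called in 0 mutants. Within 500 kb of either end, 27 genes start in the table and 10 were tested. Over all tested genes the shares called were 14.5%, 21.7% and 8.8% in the beta-catenin, Emg1 and Vangl2 mutants, and counts among 10 genes are too small to set the neighbours apart from them. In beta-catenin cKO 1 of the 10 rose and 1 fell. Tgfbi, which encodes a secreted matrix protein, held 38.8, 36.3 and 34.2 TPM in wild type and 63.8, 55.5 and 61.9 TPM in beta-catenin cKO (0.62 ± 0.10 SE, adjusted p = 0.0012). Pitx1, a homeobox factor of the hindlimb, held 99.5, 107 and 98.3 TPM in wild type and 70.1, 82.6 and 65.8 TPM in beta-catenin cKO (−0.59 ± 0.17 SE, adjusted p = 0.031). The groups of both genes were separate, but the Pitx1 call was lost with any 1 of 4 libraries left out, wild type replicates 2 and 3 and beta-catenin cKO replicates 1 and 3 (highest adjusted p 0.12). Limma on log2(TPM + 1) lost the Pitx1 call too. In Emg1 cKO 3 rose and 0 fell, by edgeR, DESeq2 and limma alike and at an unadjusted p under 0.05. They were Neurog1, a proneural factor whose gene lies 36.5 kb from Cxcl14 (0.50, adjusted p = 0.011), Tgfbi (0.40, adjusted p = 0.012) and Fbxl21, an F-box protein gene (1.15, 107 reads in all in wild type and 239 in Emg1 cKO, adjusted p = 0.026). Neurog1 and Tgfbi were lost without Emg1 cKO replicate 3, which left 1, and Fbxl21 without Emg1 cKO replicate 1 or 2 or wild type replicate 2 or 3. In Vangl2 Lp/Lp 0 were called by edgeR, 1 by DESeq2 and 1 by limma, with 2 at an unadjusted p under 0.05, and 1 without Vangl2 Lp/Lp replicate 2. The other tested neighbours, called in 0 mutants, were the histone gene H2afy and Smad5, which transduces BMP signals, with Tifab, Gm28760, AC164426.2 and Gm27271.

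The caudal pieces held several tissues, and markers of each had reads in all libraries. They ran from Foxa3 of the hindgut, with 0.180 to 1.71 TPM, to Tubb3 of neurons, with 117 to 459 TPM. Foxa3, with a median of 0.515 TPM, lay near the floor. The summed level of the surface ectoderm list was 812 to 953 TPM in wild-type libraries, 741 to 787 in beta-catenin cKO, 541 to 702 in Emg1 cKO and 692 to 792 in Vangl2 Lp/Lp. Emg1 cKO thus had the lowest libraries for this sum, in a range that touched that of Vangl2 Lp/Lp, while Cxcl14 was lowest in beta-catenin cKO. The sum is carried by abundant genes such as Krt8 and Krt18, with medians of 127 and 91.5 TPM over the 12 libraries. Trp63 and Tfap2c, with medians of 5.68 and 8.98 TPM, add little to it. The apical ectodermal ridge, a strip of ectoderm on the limb bud, also had genes called lower, and Trp63 is in this list too. Of its 15 genes 7 fell in beta-catenin cKO, 8 in Emg1 cKO and 4 in Vangl2 Lp/Lp, where 6.99%, 10.4% and 3.34% of all tested genes were called lower. By limma these counts were 5, 6 and 0, and 0 genes rose by edgeR, DESeq2 or limma (1, 0 and 1 at an unadjusted p under 0.05). The list's median log2 fold change was −0.42, −0.55 and 0.19 in the same order, positive in Vangl2 Lp/Lp. The ectodermal factor Sp6 fell by 0.88, 1.45 and 0.72 in these mutants (adjusted p = 0.0020, 3.6e-05 and 0.011), and Msx2, a BMP-responsive homeobox gene, by 1.16, 0.84 and 0.52 (adjusted p = 0.00011, 0.00069 and 0.030). The calls of both in Vangl2 Lp/Lp were lost without its replicate 1, and that of Msx2 also without replicate 2 or 3 or wild type replicate 1 or 2 (adjusted p at most 0.051 for Sp6 and 0.096 for Msx2 over the libraries left out). With limma on log2(TPM + 1) both were lost too (0.059 and 0.11). The summed level of this list was 182 to 221 TPM in wild-type, 149 to 154 in beta-catenin cKO, 138 to 151 in Emg1 cKO and 177 to 205 in Vangl2 Lp/Lp libraries.

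Genes of mesenchyme were called in both conditional knockouts and genes of the neural tube in all 3 mutants. These counts stand beside the shares of all tested genes called lower, 6.99%, 10.4% and 3.34% for the beta-catenin, Emg1 and Vangl2 mutants, and higher, 7.48%, 11.3% and 5.45%. Of 16 genes of limb and body wall mesenchyme, 8 fell and 2 rose in beta-catenin cKO, and 4 fell and 1 rose in Emg1 cKO. The loop-tail libraries had 0 of the 16 called by edgeR, 3 fell by DESeq2, 0 were called by limma, and 4 were lower at an unadjusted p under 0.05. Lhx9, a limb bud homeobox gene, fell by 1.16 in beta-catenin cKO (adjusted p = 2.1e-05) and by 0.40 in Emg1 cKO (adjusted p = 0.022). The Emg1 cKO call was lost without Emg1 cKO replicate 2 or 3 or wild type replicate 3, and with limma on log2(TPM + 1) (adjusted p = 0.15). Hand2, a limb and body wall factor, fell by 0.71 and 0.99 (adjusted p = 0.00037 and 1.9e-05). Of 20 neural tube genes 11, 14 and 14 rose in the beta-catenin, Emg1 and Vangl2 mutants, among them Dcx, a gene of young neurons (1.19, 1.83 and 1.38, adjusted p = 0.0011, 2.8e-05 and 0.00082). Of 12 nephric duct genes 6, 6 and 3 rose, among them Lhx1 (1.36, 1.6 and 1.42, adjusted p = 0.00014, 2.6e-05 and 0.00020), which neurons also use. Counts of 1 or 2 among the 10 genes of each of the next lists are too small to read against those shares. Of 10 hindgut genes 2 rose in beta-catenin cKO (Foxa1 and Shh) and 2 fell in Emg1 cKO (Cdx2 and Trh). Foxa1 was lost without beta-catenin cKO replicate 3 and Shh without that library or wild type replicate 2. The Cdx2 and Trh calls were lost with any 1 of 6 and of 9 libraries left out, and held in 9 and 3 of the 17 alternatives. Of 10 muscle progenitor genes, 1 rose (Myod1) and 1 fell (Pax3) in beta-catenin cKO, 5 rose in Emg1 cKO, and 1 rose (Pax7) and 1 fell (Myog) in Vangl2 Lp/Lp. Of these named calls, Myod1, Pax7 and Myog were lost with any 1 of 8, 8 and 4 libraries left out. Myod1 and Pax7 were each called in 7 of the 17 alternatives. Pax3 was lost with limma on log2(TPM + 1) (adjusted p = 0.054). The part of these tissues in the level of Cxcl14 was not tested.

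Known transcriptional targets of WNT signalling, the pathway that beta-catenin serves, gave smaller changes than Cxcl14 in both conditional knockouts. Cxcl14 was chosen for its low level in these libraries, so this order too is a description only. Of 22 tested, 11 fell and 0 rose in beta-catenin cKO, 6 fell and 2 rose in Emg1 cKO, and 2 fell and 1 rose in Vangl2 Lp/Lp, with medians of −0.42, −0.28 and 0.02. Of all tested genes 6.99%, 10.4% and 3.34% were called lower in these mutants and 7.48%, 11.3% and 5.45% higher. The list holds Tcf4, 1 of the 2 that rose in Emg1 cKO, a symbol that in the mouse belongs to an E-protein factor and not to a TCF/LEF gene. Tcf7, a TCF/LEF factor and target of the pathway, held 71.8, 64.4 and 55.7 TPM in wild type and 40.5, 40.7 and 39.9 TPM in beta-catenin cKO, with no overlap (−0.77 ± 0.11 SE, adjusted p = 0.00041). Tnfrsf19, a receptor gene that WNT signals induce, fell by 0.48, 0.51 and 0.26 in these mutants (adjusted p = 9.8e-05, 4.2e-05 and 0.013). The last call was lost without Vangl2 Lp/Lp replicate 1 or wild type replicate 2, and with limma on log2(TPM + 1) (adjusted p = 0.16). None of the 22 was more lowered than Cxcl14 in beta-catenin cKO or in Emg1 cKO (0 and 0), and 3 were in Vangl2 Lp/Lp.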

How the data were processed

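RNA from pools of 4 to 7 embryos was extracted with a miRNeasy kit and made into libraries with a TruSeq Stranded mRNA kit, per the labels' protocols. Reads were trimmed with Trimmomatic 0.39 and aligned with STAR 2.7.10b on mm10, per the submitters' processing notes; the tool that counted reads, its use of strand and the annotation release stay not given in the sources used here. For each gene and library the authors deposited the log2 of TPM, with values of 1 TPM or less set to 0, and the expected count of reads, with fractions and not normalised. The ratio of count to TPM was a product of a gene factor and a library factor (largest log2 residual 1.2e-06), which allowed TPM under 1 to be recovered.

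Expected counts were rounded and fitted in R 4.3.3 by edgeR 4.0.16 (TMM factors of 0.973 to 1.015, a joint fit of 12 libraries with a mean per genotype, prior degrees of freedom 7.19, common dispersion 0.00953). The test took genes reaching 1 TPM in 3 or more libraries, with Benjamini-Hochberg adjustment over 17848 genes; the other 35494 were left out. Each SE is the absolute log2 fold change over the root of F. Counting errors cover counting only. Nothing in the labels says how pools were drawn, so p-values measure the spread between these pooled libraries. Levels for the likeness of genes were log2 of TMM-scaled CPM plus 0.5. Sequences came from GENCODE vM21 (GRCm38, the assembly of mm10) and RefSeq on GRCm38.p6. Figures were drawn with matplotlib 3.10.9, and tables were made with numpy 2.4.6 and pandas 2.3.3 under Python 3.11.15. The fit was tested on simulated data.

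Cxcl14 and the gene lists were chosen with earlier results of these data known. The genes named were Cxcl14, the targeted genes, the 10 nearest genes, up to 4 called surface ectoderm genes per mutant with Grhl3, Trp63, Tfap2c, Krt5 and Wnt6, called chemokine and myeloid genes with Cxcl12, Cxcr4 and Ackr3, all tested neighbours within 500 kb, and up to 2 called genes per mutant of each other list. Others were named after their values were seen, also where they complete a count: Dlx3, Krt14, Krt15, Krt8, Perp, Tfap2a, Grhl2, Edar, Tcf4, the chemokines in order of level, the lowest and highest tissue markers and the genes so marked in the text.

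Alternatives were scaling by library totals alone, no filter, a replicate block, DESeq2 1.42.0, limma 3.58.1 on log2(TPM + 1), and each library left out. Libraries with the same replicate number did not deviate together (correlations of −0.12 to 0.08 over 18 pairs, 0 of them above 0.1). These values give no sign of pairing by number but cannot exclude it, and the labels do not state it.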

Additional observations from a re-analysis of the deposited data

How the results depend on the processing

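No value of Cxcl14 changed sign under any alternative. With log2(TPM + 1) its log2 fold change was −2.14 in beta-catenin cKO and −0.98 in Emg1 cKO, and with log2(TPM + 0.1) −1.03 in Emg1 cKO. With single libraries left out it ran from −2.53 to −2.30 in beta-catenin cKO, −1.21 to −1.08 in Emg1 cKO and −0.40 to −0.25 in Vangl2 Lp/Lp. Between mutants it ran from −1.38 to −1.14 for beta-catenin cKO against Emg1 cKO, −2.21 to −1.97 for beta-catenin cKO against Vangl2 Lp/Lp and −0.91 to −0.76 for Emg1 cKO against Vangl2 Lp/Lp.

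Counts moved more, and the cause was not tested. Whole-table calls ran from 1436 to 2863 in beta-catenin cKO, 2610 to 4092 in Emg1 cKO, 719 to 1688 in Vangl2 Lp/Lp and 231 to 813 between the conditional knockouts with single libraries left out; they were 1476, 1669 and 1436 in beta-catenin cKO without its replicates 1, 2 and 3, and between the conditional knockouts 341, 343 and 231 without these and 353 and 252 without Emg1 cKO replicates 1 and 2. Without a filter 2624 were called in Vangl2 Lp/Lp and 1308 between the conditional knockouts, where DESeq2 called 987. With the replicate block, whose numbers are not known to pair the libraries, 2370, 3595, 1350 and 516 were called in these 4 comparisons, and 2 chemokine genes in beta-catenin cKO. Surface ectoderm genes lower ran from 12 to 18, 23 to 31, 1 to 9 and 3 to 5 with single libraries left out, and genes higher from 1 to 2, 1 to 2, 1 to 2 and 1 to 6. In Vangl2 Lp/Lp 13 were lower without a filter, 9 by DESeq2 and 1 with log2(TPM + 1). In beta-catenin cKO 2 were higher with library totals alone, no filter, DESeq2 and log2(TPM + 1). Between the conditional knockouts 13 were higher without a filter and 8 by DESeq2. Chemokine genes called in beta-catenin cKO were 2 with library totals alone, 3 without a filter and by DESeq2 and 4 with log2(TPM + 1), and in Vangl2 Lp/Lp 1 under these 4; with single libraries left out they ran from 1 to 4, 2 to 4 and 0 to 2 in the 3 mutants. Neighbours called ran from 1 to 2, 1 to 3 and 0 to 1; in Vangl2 Lp/Lp they were 2 without a filter, 1 by DESeq2 and 1 with log2(TPM + 1), and in beta-catenin cKO 1 with log2(TPM + 1). Of the 10 nearest genes 5 were named again by Pearson's r, 6 with log2(TPM + 1) and 7 to 10 with single libraries left out. The surface ectoderm median became −0.18, −0.43 and −0.12 in the 3 mutants with log2(TPM + 1), and −0.46 or −0.69 in Emg1 cKO without its replicate 1 or 3.

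The share of called genes that were higher rose from 51.7%, 52.1% and 62.0% in these mutants to 68.8%, 68.3% and 76.4% with library totals alone and to 82.5%, 82.0% and 85.1% with log2(TPM + 1), which shifts the median of all genes by 0.10, 0.11 and 0.08. Cxcl14 had 99 to 138 reads in beta-catenin cKO libraries, which sets the counting error of their levels at 8.51% to 10.1%.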
